A study of Mus musculus with 6 samples.

Results

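The 10 genes described here belong to cells that wrap blood vessels and were followed in sorted mouse bone marrow stroma: 4 that encode parts of the smooth muscle contractile apparatus (Acta2, Tagln, Myh11 and Cnn1) and 6 that are used to recognise pericytes (Rgs5, Mcam, Cspg4, Notch3, Kcnj8 and Abcc9). The genes were listed by name, and each was read from 1 probe set of the array, the one with a single gene symbol and the highest mean over the arrays. All 10 were measured, of 19938 genes in all, and each had 1 such probe set. The cells were CD73+CD105+ (n = 3) and CD73+CD105- (n = 3) fractions of primary mouse bone marrow. Both were negative for CD45, a leukocyte protein, and Ter119, a red cell lineage protein, and both carried CD73, an ectoenzyme that releases adenosine. They differed in CD105, also called endoglin, which helps receptors of the TGF-beta family on endothelium and on some stromal cells. Dissociated tissue was sorted directly into lysis buffer, and total RNA was hybridised to 1 array per sample. No treatment or engineered allele is named for either fraction, and the sources used here give no strain, age or sex of the mice. The labels call the samples of a fraction biological replicates without saying whether each came from its own mouse, so the p-values cover only the spread among these samples, which may be technical.

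Pericytes and vascular smooth muscle cells, together called mural cells, lie on the outside of the endothelial tube. Smooth muscle cells of arterioles are known for actin and myosin filaments that contract and set vessel diameter, under the transcription factor SRF and its coactivators. Pericytes of capillaries contain less of this apparatus and are told by surface proteins, by Notch signalling from the endothelium and by potassium channels that respond to the energy state of the cell. In marrow, stromal cells with some of these surface proteins surround sinusoids and arterioles.

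The sequences just before the start sites of 4 genes that are prominent in the text below are shown. Any part of these sequences in the expression values was not tested. Rgs5 had the largest difference, Abcc9 and Kcnj8 encode subunits of one channel, and Acta2 is the classic SRF target of smooth muscle. RefSeq windows (build GRCm38.p6) were matched by symbol for 8 of the 10 genes, the others being Tagln and Myh11. Each window has 250 bases, ends at the base before the start site and reads 5′ to 3′ on the gene's strand. Capitals mark letters that match a searched motif on either strand. The motifs were the CArG box, which SRF binds, with at most 1 letter off in its A/T core, and 4 short ones. These were TATAAA, the common core promoter box, then CATTCC, which TEAD factors bind. To these were added TGGGAA for the Notch effector RBPJ and, for the general factor SP1, GGGCGG.
Rgs5, chr1:169655251-169655500 (+ strand): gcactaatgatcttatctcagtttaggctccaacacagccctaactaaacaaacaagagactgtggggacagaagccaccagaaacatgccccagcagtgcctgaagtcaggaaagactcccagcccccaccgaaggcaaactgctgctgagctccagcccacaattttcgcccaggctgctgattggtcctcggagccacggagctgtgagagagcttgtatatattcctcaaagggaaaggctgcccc
Abcc9, chr6:142702275-142702524 (- strand): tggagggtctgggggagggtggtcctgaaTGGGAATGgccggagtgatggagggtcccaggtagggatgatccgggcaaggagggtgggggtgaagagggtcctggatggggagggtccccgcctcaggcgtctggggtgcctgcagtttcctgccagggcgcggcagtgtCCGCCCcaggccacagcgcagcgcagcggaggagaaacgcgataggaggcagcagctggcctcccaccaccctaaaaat
Kcnj8, chr6:142571615-142571864 (- strand): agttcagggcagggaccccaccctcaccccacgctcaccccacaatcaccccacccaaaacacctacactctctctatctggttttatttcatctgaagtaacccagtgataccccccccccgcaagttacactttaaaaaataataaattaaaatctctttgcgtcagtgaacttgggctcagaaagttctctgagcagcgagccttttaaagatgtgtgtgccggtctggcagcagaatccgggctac
Acta2, chr19:34255374-34255623 (- strand): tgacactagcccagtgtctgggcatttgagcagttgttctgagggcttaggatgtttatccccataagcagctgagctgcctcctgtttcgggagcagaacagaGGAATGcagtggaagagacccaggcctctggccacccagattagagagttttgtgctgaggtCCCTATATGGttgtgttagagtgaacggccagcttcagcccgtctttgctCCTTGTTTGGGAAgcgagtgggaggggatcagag

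Acta2 had 2 CArG boxes with 1 letter off, CCCTATATGG from 84 to 75 bases before the start site and CCTTGTTTGG from 34 to 25, and it alone of the 8 windows held this motif. The second overlaps a TGGGAA. Of 32851 RefSeq windows of this length 8.59% held a CArG box with at most 1 letter off, and 1.47% held an exact one. The Abcc9 window held 1 CATTCC, read on the other strand, which overlaps its 1 TGGGAA, and 1 GGGCGG. The windows of Rgs5 and Kcnj8 held none of the searched motifs. GGGCGG stood in 5 places in the Mcam window, 4 in the Notch3 window and 2 in the Cspg4 window, and 32.7% of all windows held it at least once. TGGGAA was found in 21.6%, CATTCC in 12.6% and TATAAA in 12.4% of all windows. These matches describe letters and show no binding.

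The array medians lay between 6.27 and 6.35 on the log2 scale. Eng, the gene of CD105, differed in the direction of the gate, with a mean of 8.06 in CD73+CD105+ cells against 6.30 in CD73+CD105- cells. Of 9 leukocyte markers 5 stood, in both fractions, below the level that olfactory and vomeronasal receptor genes, which marrow is not known to use, rarely exceed (95th percentile of their means, 6.01). Above it in both CD73+CD105+ and CD73+CD105- cells were Cd68 (7.05 and 6.89), Cd3e (6.59 and 6.59) and S100a8 (6.45 and 6.28). Cartilage markers were high in both, with a mean over 10 genes of 11.44 to 11.78 on the CD73+CD105+ arrays and 11.83 to 12.02 on the CD73+CD105- arrays, although the label names only bone marrow. The 2 arrays numbered replicate 1 stand apart: for each probe set their mean nearly equalled that of the remaining 4 arrays (SD of the gap 0.0627), a balance that the 8 other cross-fraction pairs of arrays did not have (lowest SD 0.202). Over the 10 genes this gap was at most 0.0668. No label describes it, and calls that rest on these arrays are given with and without them.

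In the fit of all 6 arrays with no block, CD73+CD105+ cells held more transcript of 3 pericyte genes and of 1 contractile gene than CD73+CD105- cells. Rgs5 rose most, 3.3-fold, followed by Tagln (1.97-fold), Abcc9 (1.58-fold) and Mcam (1.49-fold). Acta2, Myh11, Cnn1, Notch3, Kcnj8 and Cspg4 did not pass the test, and Cspg4 was the one gene of the 10 with a lower mean in CD73+CD105+ cells. The test was limma on all 19938 genes with Benjamini-Hochberg adjustment and a threshold of 0.05. Over all genes 1.35% passed as higher and 0.466% as lower. Of the 19938 genes 3522 had an unadjusted limma p under 0.05, and 8854 had a difference above 0. Each difference is the CD73+CD105+ mean minus the CD73+CD105- mean, in log2 units. In sorted populations a difference may reflect more cells of a type or more RNA per cell, and these cannot be told apart here. The fit treats the 6 arrays as independent, which was not shown for those numbered replicate 1, so its p-values may be too small. Of the 4 rises only Tagln passed with a batch term for replicate 1, and 0 passed in replicates 2 and 3 alone.

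**Figure D1:**
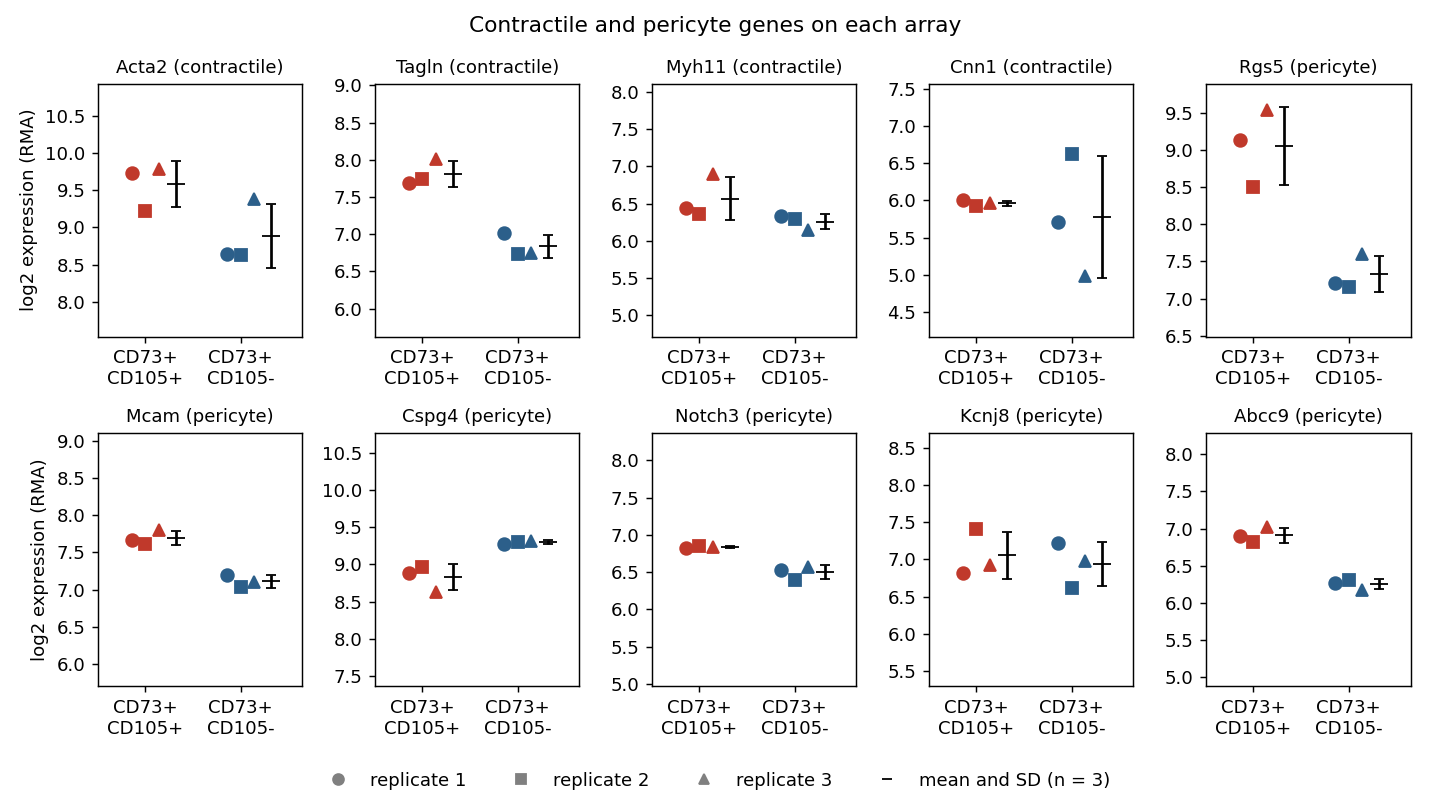
Log2 expression (RMA, vertical axes, each spanning the same number of log2 units) of the 10 genes on each array, CD73+CD105+ in red and CD73+CD105- in blue, with the mean and SD (n = 3) of each fraction in black. Rgs5, Tagln, Abcc9, Mcam, Notch3 and Myh11 are separated upward in CD73+CD105+ cells and Cspg4 downward, while Acta2, Cnn1 and Kcnj8 overlap.

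Among the contractile genes, Tagln encodes transgelin, a calponin-family protein that binds actin filaments and appears early in smooth muscle differentiation. It stood at 7.68, 7.74 and 8.01 in CD73+CD105+ replicates 1, 2 and 3, against 7.02, 6.73 and 6.75 in CD73+CD105- replicates 1, 2 and 3. Every CD73+CD105+ array lay above every CD73+CD105- array, and the gap between the groups was wider than the range within either. The difference was 0.98 (SE 0.12, limma adjusted p = 0.0128). The annotation places Pcsk7, a proprotein convertase gene, across part of the Tagln locus, and Pcsk7 differed by 0.01 (SE 0.09, limma adjusted p = 0.961). It also lists genes that overlap Abcc9 (5330439B14Rik) and Notch3 (Gm38585 and Gm41568), whose values are not given here.

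Acta2 encodes smooth muscle alpha-actin, the actin of the contractile filaments. Its values were 9.74, 9.22 and 9.78 in CD73+CD105+ replicates 1, 2 and 3, against 8.64, 8.63 and 9.38 in CD73+CD105- replicates 1, 2 and 3. The groups overlapped, since CD73+CD105- replicate 3 lay above CD73+CD105+ replicate 2. The mean was 9.58 ± 0.31 in CD73+CD105+ cells and 8.88 ± 0.43 in CD73+CD105- cells (SD, n = 3 each), and the difference of 0.70 (SE 0.24) did not pass (limma adjusted p = 0.191). Its 95% interval, 0.14 to 1.25, includes the size seen for Tagln.

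Myh11 encodes the smooth muscle myosin heavy chain, a marker of mature contractile cells. It stood at 6.45, 6.36 and 6.89 in CD73+CD105+ replicates 1, 2 and 3, and at 6.34, 6.29 and 6.15 in CD73+CD105- replicates 1, 2 and 3. The groups did not overlap, but the lowest CD73+CD105+ value and the highest CD73+CD105- value were almost the same. The difference was 0.31 (SE 0.14, limma adjusted p = 0.323), with a 95% interval of -0.03 to 0.64.

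Cnn1 encodes calponin, which binds actin and slows the myosin motor. It stood at 6.001, 5.93 and 5.96 in CD73+CD105+ replicates 1, 2 and 3, and at 5.71, 6.63 and 4.99 in CD73+CD105- replicates 1, 2 and 3. The CD73+CD105+ arrays were nearly equal (SD 0.0345), while the CD73+CD105- arrays lay on both sides of them with a range of 1.64, the widest within-group range of the 10 genes. Both means were below the receptor gene level of 6.01, and the difference of 0.19 (SE 0.36, limma adjusted p = 0.828) turned to -0.21 without CD73+CD105- replicate 3. RMA compresses differences near background, so the size for this gene may be understated.

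Among the pericyte genes, Rgs5 encodes a regulator of G protein signalling that shortens signals from vasoactive receptors and is one of the most used pericyte markers. It stood at 9.13, 8.50 and 9.53 in CD73+CD105+ replicates 1, 2 and 3, against 7.21, 7.16 and 7.60 in CD73+CD105- replicates 1, 2 and 3. The lowest CD73+CD105+ array was above the highest CD73+CD105- array, although the CD73+CD105+ arrays themselves spanned 1.03. The difference of 1.72 (SE 0.25, limma adjusted p = 0.024) was the largest of the 10 genes and the 35th largest in size among all genes.

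Mcam encodes CD146, an adhesion molecule of pericytes, of marrow stromal progenitors and of endothelium. Its values were 7.66, 7.61 and 7.80 in CD73+CD105+ replicates 1, 2 and 3, against 7.20, 7.03 and 7.11 in CD73+CD105- replicates 1, 2 and 3. The arrays of each fraction lay within 0.18 of each other and the groups were apart. The difference was 0.58 (SE 0.08, limma adjusted p = 0.0208).

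Cspg4 encodes NG2, a large proteoglycan on the surface of pericytes that is also made by cartilage and by glial progenitors. It stood at 8.89, 8.96 and 8.63 in CD73+CD105+ replicates 1, 2 and 3, and at 9.27, 9.30 and 9.32 in CD73+CD105- replicates 1, 2 and 3. All CD73+CD105+ arrays were below all CD73+CD105- arrays, and the CD73+CD105- arrays differed by only 0.0484. The difference of -0.47 (SE 0.10) did not pass (limma adjusted p = 0.0634). Its direction was that of the cartilage marker list, of which all 10 genes had a difference below 0 (median -0.28) and 0 passed in limma, with 6 at an unadjusted p under 0.05. The part of cartilage cells in the Cspg4 value was not tested.

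Notch3 encodes the Notch receptor of mural cells, which receives signals from Jagged ligands on endothelium. Its values were 6.83, 6.85 and 6.83 in CD73+CD105+ replicates 1, 2 and 3, against 6.53, 6.39 and 6.57 in CD73+CD105- replicates 1, 2 and 3. The groups were apart and the CD73+CD105+ arrays were almost identical (SD 0.0102). The difference of 0.34 (SE 0.07) did not pass (limma adjusted p = 0.0738), with a 95% interval of 0.16 to 0.51.

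Kcnj8 and Abcc9 encode the pore (Kir6.1) and the sulphonylurea receptor (SUR2) of the ATP-sensitive potassium channel of pericytes and vascular smooth muscle. The RefSeq annotation places them next to each other on chromosome 6, with 0 protein-coding genes between them. Abcc9 stood at 6.89, 6.82 and 7.02 in CD73+CD105+ replicates 1, 2 and 3, against 6.27, 6.31 and 6.17 in CD73+CD105- replicates 1, 2 and 3. The groups were well apart, and the difference was 0.66 (SE 0.08, limma adjusted p = 0.0128). Kcnj8 stood at 6.82, 7.41 and 6.93 in CD73+CD105+ replicates 1, 2 and 3, and at 7.22, 6.62 and 6.97 in CD73+CD105- replicates 1, 2 and 3. Its arrays were mixed between the fractions, with a difference of 0.11 (SE 0.20, limma adjusted p = 0.808) and a 95% interval of -0.35 to 0.58. The Abcc9 difference exceeded the Kcnj8 difference by 0.54. An exact permutation test of Abcc9 minus Kcnj8 (log2) over the 6 arrays gave p = 0.2 (two-sided, smallest possible p = 0.1). As that smallest p is above the threshold of 0.05, the test could not pass whatever the values. It therefore cannot decide whether the fractions differed more in Abcc9 than in Kcnj8. The values of Abcc9 minus Kcnj8 overlapped, since CD73+CD105+ replicate 2 (-0.59) lay below CD73+CD105- replicate 2 (-0.31).

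Set side by side, the contractile genes had 1 of 4 past the threshold and the pericyte genes 3 of 6. The median difference was 0.50 over the contractile genes and 0.46 over the pericyte genes, against -0.02 over all genes. The contractile differences ran from 0.19 to 0.98, all above 0, and the pericyte differences from -0.47 to 1.72, with 5 of 6 above 0. By median the arms lay close to each other, and the pericyte genes covered the wider range. The groups of arrays did not overlap for 6 genes upward and 1 downward. Over all genes 10.7% were separated upward and 12.9% downward.

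**Figure D2:**
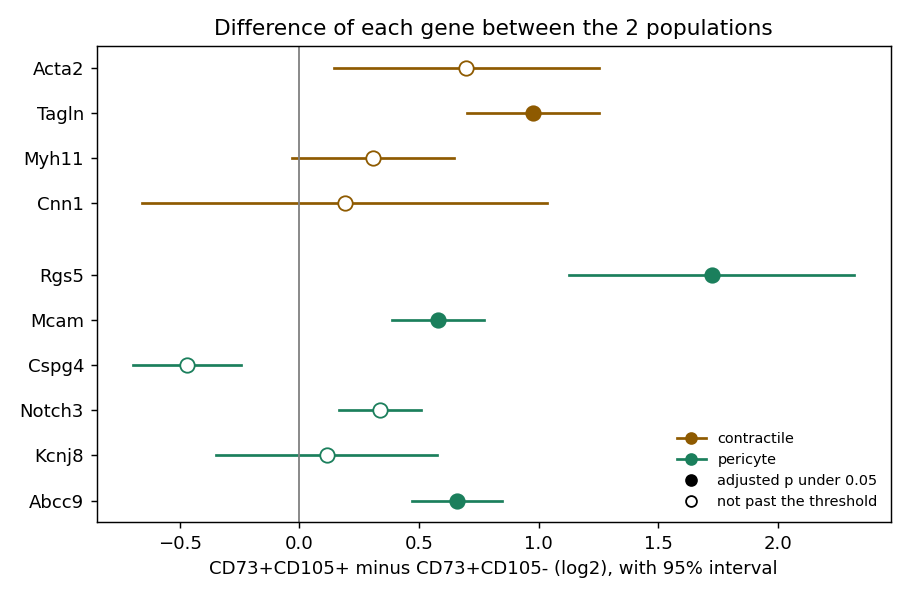
Difference between CD73+CD105+ and CD73+CD105- cells (log2, horizontal axis) with its 95% interval from limma for the 4 contractile genes and the 6 pericyte genes, filled where the adjusted p was under 0.05. Rgs5 is farthest to the right at 1.72, Tagln is the one filled contractile gene, and Cspg4 at -0.47 is the one gene left of 0.

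Within the fractions the array order of the 10 genes was also counted. Of the 10 genes 6 had their highest CD73+CD105+ value in replicate 3, and 6 had their lowest in replicate 2. In CD73+CD105- cells 6 had their lowest value in replicate 2, while the highest was in replicate 1 for 4 genes, replicate 2 for 2 and replicate 3 for 4. Such orders were not counted over all genes, so they are not shown to be particular to these 10. Acta2 and Rgs5, a contractile and a pericyte gene, had the same extremes in both fractions: replicate 3 was the highest and replicate 2 the lowest. For Acta2 in CD73+CD105- cells, however, replicates 1 (8.638) and 2 (8.635) were almost equal. By Pearson's r over the 6 arrays, among 11966 named genes above the receptor gene level, those most like Rgs5 were Lpar6 (r = 0.999), Tlr4 (0.997) and Snx30 (0.997). Most like Acta2 were Pdcl (0.997), Psme2 (0.994) and Epb41l2 (0.994). These r values describe 6 arrays that share the sort and the difference between fractions.

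Of the marker lists of other cell types, those of endothelium and of reticular stroma held genes past the threshold. All 12 endothelial markers rose in CD73+CD105+ cells, from 0.63 (Robo4, a guidance receptor of vessels) to 4.61 (Emcn, a vessel sialomucin), with a median of 2.37 (limma adjusted p at most 0.0217). The adhesion receptor gene Adgrl4 rose by 4.07, the junction gene Pecam1 by 3.63 and the junction cadherin Cdh5 by 3.34. The mean level of this list was 7.98 to 8.29 on the CD73+CD105+ arrays and 5.64 to 5.93 on the CD73+CD105- arrays, and 0 of its genes were below the receptor gene level in both fractions. Mcam is also an endothelial gene, and the part of endothelial cells in its rise was not tested. Of 6 reticular stroma markers 5 rose, among them Adipoq (1.32), Cxcl12 (1.31), Kitl (1.27) and the leptin receptor gene Lepr (0.93), and the list's mean level was 8.83 to 9.01 on the CD73+CD105+ arrays and 7.81 to 8.22 on the CD73+CD105- arrays. Reticular cells that surround sinusoids are known to share surface proteins with pericytes, and their part in the pericyte gene values was not tested. With a batch term for replicate 1, 9 of the 12 endothelial markers and 1 of the 6 reticular stroma markers (Lepr) passed. In replicates 2 and 3 alone 7 endothelial and 0 reticular markers passed in limma (12 and 5 at an unadjusted p under 0.05). Without CD73+CD105+ replicate 1 or without CD73+CD105- replicate 1 the reticular count was 1 as well, without CD73+CD105+ replicate 2 it was 3 and without CD73+CD105+ replicate 3 it was 2.

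Fibroblast markers had 0 of 10 genes past the threshold in limma (6 at an unadjusted p under 0.05), with differences from 0.08 to 0.50. The matrix gene Dpt differed by 0.50 and Pi16 by 0.44. The list's mean level was 10.13 to 10.39 on the CD73+CD105+ arrays and 9.73 to 10.11 on the CD73+CD105- arrays. Skeletal muscle markers, which share actin and myosin families with the contractile genes, also had 0 of 10 past the threshold (1 at an unadjusted p under 0.05). Their median was -0.03, with the fast troponin genes Tnni2 at -0.38 and Tnnt3 at -0.21. The lists for leukocytes (9 genes), osteoblasts (6) and Schwann cells (4) held 0 calls in limma as well, with 1, 2 and 0 genes at an unadjusted p under 0.05.

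**Figure D3:**
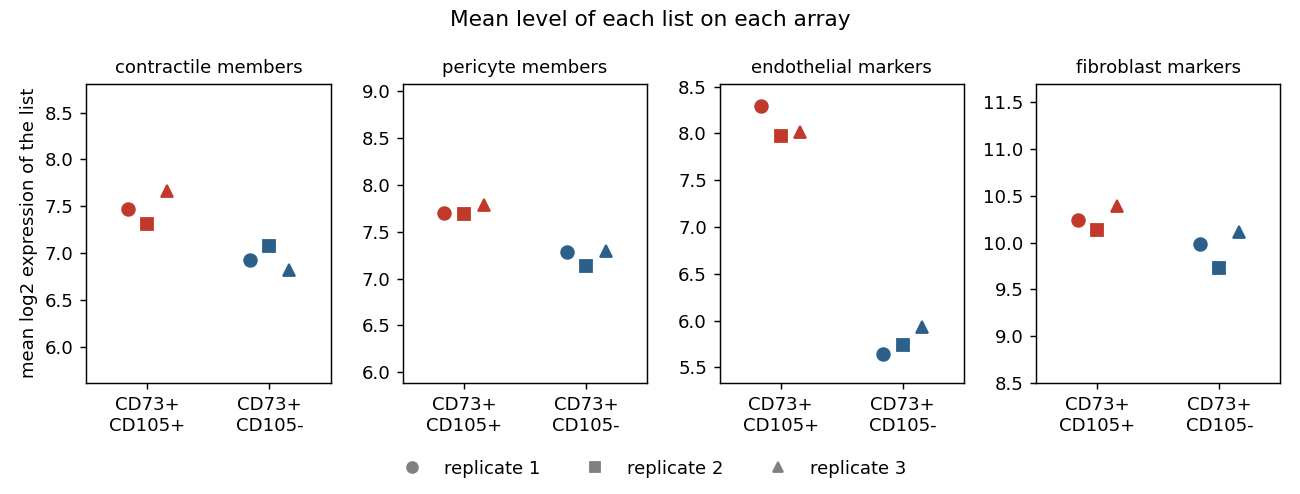
Mean log2 expression of the contractile genes, the pericyte genes, 12 endothelial markers and 10 fibroblast markers on each array (vertical axes, each spanning the same number of log2 units), CD73+CD105+ in red and CD73+CD105- in blue. The endothelial mean lies between 7.98 and 8.29 in CD73+CD105+ cells and between 5.64 and 5.93 in CD73+CD105- cells, a wider gap than in the other 3 panels.

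A further 4 lists of related genes were read from the same fit. Their counts stand beside 3522 of all 19938 genes at an unadjusted limma p under 0.05 and 8854 with a difference above 0. The rest of the contractile apparatus had 0 of 20 genes past the threshold in limma (4 at an unadjusted p under 0.05), 12 above 0 and a median difference of 0.10. Its largest differences were Flna, the actin crosslinker filamin A, at 0.37 (limma adjusted p = 0.164) and Mylk, the kinase that switches smooth muscle myosin on, at 0.36 (limma adjusted p = 0.183). Desmin (Des), an intermediate filament gene of muscle and pericytes, was at -0.02, with both means below the receptor gene level. Myl9, the regulatory myosin light chain, was at 0.19.

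Of 12 genes of smooth muscle transcription 0 passed in limma (2 at an unadjusted p under 0.05), and the median was -0.03. Foxs1, a forkhead factor found in pericytes, was at 0.34 (limma adjusted p = 0.0804) and the SRF coactivator Mrtfb at 0.26 (limma adjusted p = 0.13). Srf itself was at -0.09 and Myocd, the smooth muscle coactivator of SRF, at -0.18, with both Myocd means below the receptor gene level.

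Of 19 measured further pericyte genes 1 rose and 15 were above 0, with a median of 0.22 and 8 at an unadjusted p under 0.05. The gene that rose was S1pr3, a sphingosine-1-phosphate receptor of mural cells. It stood at 8.13, 8.10 and 8.08 in CD73+CD105+ replicates 1, 2 and 3, against 7.61, 7.55 and 7.44 in CD73+CD105- replicates 1, 2 and 3, a difference of 0.57 (SE 0.07, limma adjusted p = 0.0137). With a batch term for replicate 1 its limma adjusted p was 0.0557, and it also missed the threshold without either array of replicate 1 (0.0773 without the CD73+CD105+ array, 0.053 without the CD73+CD105- array) and without CD73+CD105- replicate 2 (0.0511). Cd248, endosialin of pericytes and fibroblasts, was at 0.80 (limma adjusted p = 0.107) and Pdgfrb, the receptor that recruits pericytes to vessels, at 0.45 (limma adjusted p = 0.0687). Below 0 were 4 genes, namely Cox4i2 (-0.18), Gucy1b1 (-0.05), Lamc3 (-0.02) and Vtn (-0.01). In both fractions 6 of the 19 genes, Gucy1b1 and Vtn among them, had means below the receptor gene level.

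Of 10 genes for signals that recruit or anchor mural cells 0 passed in limma (4 at an unadjusted p under 0.05), with a median of 0.28. The largest were S1pr1, an endothelial and stromal sphingosine-1-phosphate receptor, at 1.13 (limma adjusted p = 0.0546) and Cdh2, the N-cadherin of the contact between endothelium and pericyte, at 0.90 (limma adjusted p = 0.118). The PDGF ligand gene Pdgfb was at 0.04, with both means below the receptor gene level, and the Notch ligand gene Jag1 was at 0.24.

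**Figure D4:**
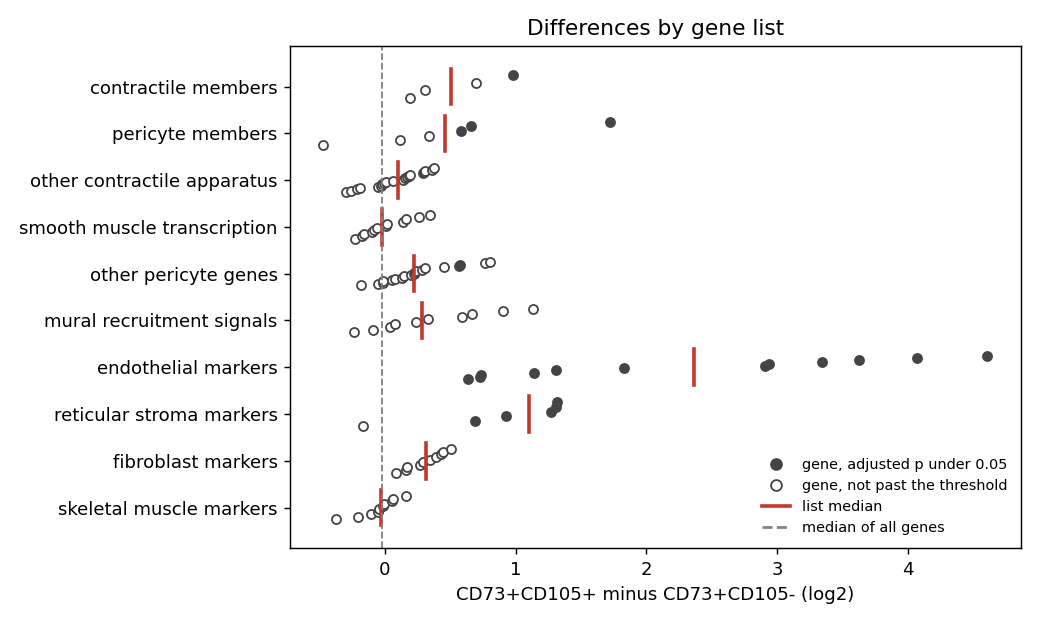
Difference between CD73+CD105+ and CD73+CD105- cells (log2, horizontal axis) for each gene of 10 lists, filled where the limma adjusted p was under 0.05, with the list median as a red bar and the median of all genes (-0.02) as a dashed line. Filled genes are 1 contractile gene, 3 pericyte genes, 1 of the other pericyte genes, all 12 endothelial markers and 5 of 6 reticular stroma markers.

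How many of the 4 rises held depended on which arrays and terms were used. With a batch term for replicate 1, Tagln passed (limma adjusted p = 0.044) and Abcc9 (0.0546), Rgs5 (0.0643) and Mcam (0.0786) did not, while 0.507% of all genes passed. The term left the differences unchanged and raised their standard errors (Tagln 0.118 to 0.132, Abcc9 0.0795 to 0.0967). As the replicate 1 mean nearly equalled that of the other arrays, it had little shift to remove, and this fit does not test for a batch effect. In replicates 2 and 3 alone the differences were 1.13 for Tagln, 1.63 for Rgs5, 0.68 for Abcc9 and 0.64 for Mcam, and 0 of the 10 genes passed in limma (6 at an unadjusted p under 0.05). When arrays were left out one at a time, Tagln passed all 6 times, Abcc9 4 times, Rgs5 3 times and Mcam once. Abcc9 was lost without CD73+CD105+ replicate 1 (0.0618) or CD73+CD105- replicate 1 (0.0614). Rgs5 was lost without CD73+CD105+ replicate 1 (0.089), CD73+CD105- replicate 1 (0.0943) or CD73+CD105- replicate 2 (0.0827). Mcam passed only without CD73+CD105+ replicate 2 (0.0379) and was otherwise between 0.0528 and 0.0913. The differences of Tagln, Rgs5 and Mcam were above 0 in all 16 alternative settings, and that of Abcc9 in the 15 that kept it (the filter at the median level drops it). The replicate block, the batch term, the dim-gene filters and the trended, robust fit cannot change a difference. Nor can averaging probe sets, since each of these genes had 1. The sign could therefore turn only in the other settings.

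**Figure D5:**
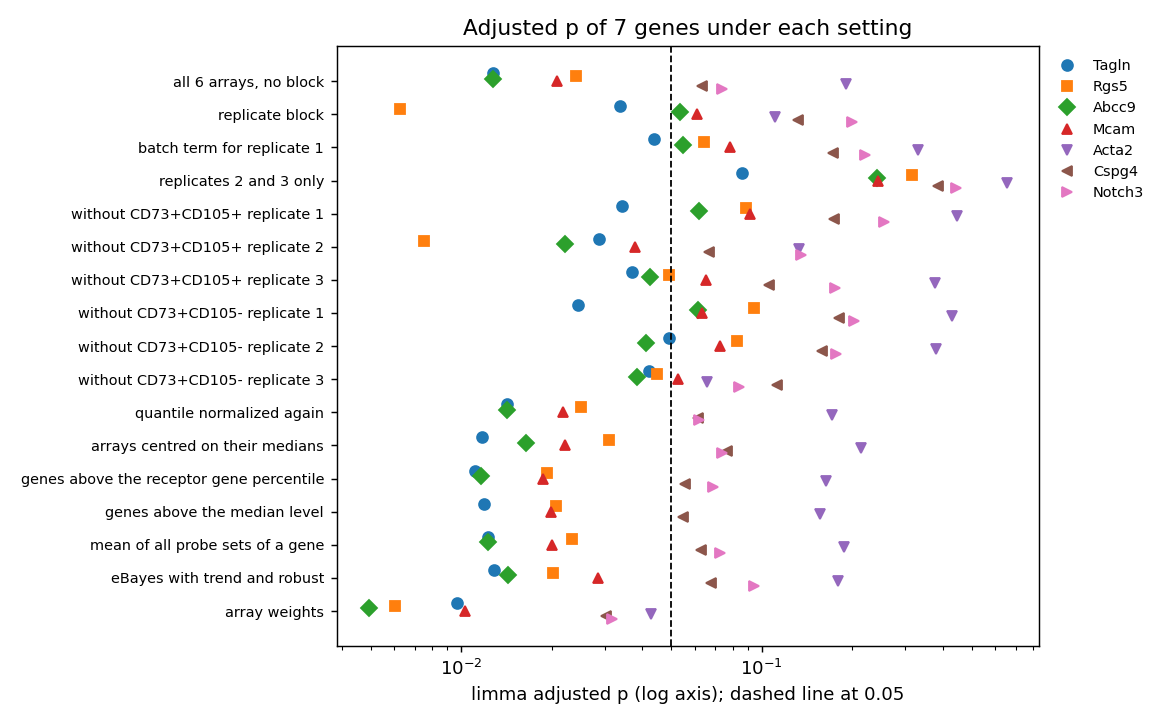
Limma adjusted p (log axis) of 7 of the genes with all 6 arrays and under 16 alternative settings (no point where a dim-gene filter drops the gene), with the threshold of 0.05 as a dashed line. Tagln lies left of the line in every setting but replicates 2 and 3 only (0.0858), and Acta2, Cspg4 and Notch3 lie left of it only with array weights.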

How the data were processed

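Total RNA of sorted mouse bone marrow cells was measured on 1-colour biotin arrays, CD73+CD105+ (n = 3) and CD73+CD105- (n = 3), grouped by sample title. The authors deposited log2 expression values made by RMA, per the submitters' processing notes, a method that corrects background, quantile normalizes and summarises probes into probe sets. Its version, the annotation and the build were not given in the sources used here. Detection calls were not used here, and precision is limited by the number of arrays.

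The platform annotation gives 1 gene symbol to 21789 of 35556 probe sets, several to 1621 and none here to 12146. The probe set with the highest mean over the 6 arrays was kept per symbol, giving 19938 genes. All 10 symbols matched a RefSeq gene table by Entrez ID. Differences were tested in limma 3.58.1 (lmFit, eBayes, two-sided, R 4.3.3) with no block and Benjamini-Hochberg adjustment over all genes (threshold 0.05). Standard errors and 95% intervals are the moderated ones of that fit. The fit was tested on simulated data with independent noise on each array. These lacked the balance of the replicate 1 arrays, so they do not test how it affects the p-values. A further 13 lists with 154 symbols were read from the same fit, of which 146 were measured. Promoter windows came from RefSeq (GRCm38.p6). The genes, the lists, the alternatives and the naming rule were chosen with earlier results of these data known. That rule took all 10 genes, sort marker genes, up to 4 called genes per list by size or, with fewer than 2 called, the 2 largest differences, and the 3 genes most correlated with Rgs5 and with Acta2. Robo4, Des, Myl9, Srf, Myocd, Pdgfrb, Pdgfb, Jag1, Pcsk7, Kcnj11, Abcc8, Cd68, Cd3e and S100a8 were named after their values were seen. So were Cox4i2, Gucy1b1, Lamc3 and Vtn. Alternatives changed the batch terms, the arrays, the normalization, the dim-gene filter, the probe set rule and the variance model.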

Additional observations from a re-analysis of the deposited data

How the results depend on the processing

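The median differences of the contractile genes (0.39 to 0.64 over 14 alternatives) and of the pericyte genes (0.41 to 0.50 over 15) moved by less than the spread between replicates. Filters on dim genes drop members, so 3 such medians have no value. The number of the 10 genes past the threshold was 4 with all arrays, and 1 to 4 when an array was left out. It was 2 with the replicate block, 1 with the batch term for replicate 1, 0 in replicates 2 and 3 alone and 7 with array weights (6 higher, 1 lower). Over all genes the count was 363 (270 higher, 93 lower), 86 to 293 without an array, 215 with the replicate block, 101 with the batch term, 29 in replicates 2 and 3 alone and 1331 with array weights. In the other lists 20 genes passed, 10 to 19 without an array, 10 with the batch term, 7 in replicates 2 and 3 alone and 37 with array weights. The replicate block and the batch term leave each difference as it was and change only its standard error and degrees of freedom. The cause of the changes in these counts was otherwise not tested, beyond the smaller number of samples in the left-out settings. The sign of Kcnj8 turned without CD73+CD105+ replicate 2 (-0.065), without CD73+CD105- replicate 2 (-0.044) and with array weights (-0.070), and it ran from -0.065 to 0.25 over the left-out arrays. That of Cnn1 turned without CD73+CD105- replicate 3, with -0.21 to 0.62 over the left-out arrays, and that of Cdh19 with array weights (0.079). With the replicate block Rgs5 (limma adjusted p = 0.00628) and Tagln (0.0337) passed, and Abcc9 (0.0536) and Mcam (0.0611) did not. No label says that the replicate numbers pair samples. Deviations of same-numbered arrays from their fraction means correlated at -0.88, 0.01 and 0.10 across genes for replicates 1, 2 and 3. The 2 arrays of replicate 1 thus deviated in opposite directions, which goes with the balance described above, and cannot be taken as unrelated. Re-normalizing, centring, the dim-gene filters, averaging probe sets and the trended, robust fit changed no call among the genes of the 10 that they kept.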

Other observations

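Close relatives of the 10 genes were read from the same fit. Of 21 measured relatives 2 rose in CD73+CD105+ cells, 0 fell and the median difference was 0.02. Rgs16, another regulator of G protein signalling, stood at 9.10, 9.40 and 8.94 in CD73+CD105+ replicates 1, 2 and 3, against 8.36, 8.24 and 8.18 in CD73+CD105- replicates 1, 2 and 3. The groups were apart, with a difference of 0.88 (SE 0.12, limma adjusted p = 0.0207). Bcam, an immunoglobulin-family laminin receptor related to Mcam, stood at 7.71, 7.56 and 7.44 in CD73+CD105+ replicates 1, 2 and 3, against 6.84, 7.06 and 6.87 in CD73+CD105- replicates 1, 2 and 3. Its groups were apart as well, with a difference of 0.65 (SE 0.10, limma adjusted p = 0.0269). With a batch term for replicate 1 neither passed (0.0641 for Rgs16, 0.0853 for Bcam). Rgs16 also missed the threshold without either array of replicate 1 or without CD73+CD105- replicates 2 or 3 (0.0551 to 0.0729). Bcam missed it without CD73+CD105+ replicates 1 or 2 or CD73+CD105- replicates 1 or 3 (0.0626 to 0.106). Kcnj11 and Abcc8, which encode the ATP-sensitive potassium channel subunits of pancreatic beta cells, differed by -0.18 and -0.08 and did not pass. Both Abcc8 means were below the receptor gene level.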
